A study of Mus musculus with 34 samples.

Results

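The 9 genes described here encode the glucocorticoid receptor (Nr3c1), its closest relative the mineralocorticoid receptor (Nr3c2) and 7 coregulators through which such receptors act on transcription: the p160 coactivators Ncoa1, Ncoa2 and Ncoa3, the corepressors Ncor1 and Nrip1, the inducible coactivator Ppargc1a and the histone methyltransferase Kmt2d. They were taken by name, with earlier results of these data known, and all 9 were found among the 25124 genes of the deposited tables. The libraries were total RNA of C127l cells, a mouse adenocarcinoma line, whose own glucocorticoid receptor (GR) had been knocked out. Into these cells mouse GR fused to GFP was introduced, either wild type (WT) or with the substitution P631A, W718E or P643A, or with both substitutions of W718S/Y722S. Each of the 5 lines was kept for 24 h in medium with 10% charcoal-stripped serum, which removes steroids, and was then given vehicle or 100 nM dexamethasone (Dex), a synthetic glucocorticoid, for 2 h. This gave 10 groups and 34 libraries, with n = 3 in each group of the first 4 lines and n = 5 in each W718S/Y722S group. The GR knockout is shared by all groups, controls included, and the labels state neither whether a line is 1 clone nor whether replicates are separate cultures, so that p-values here reflect how far libraries of a group lie apart and no more. The series' title names the multimerisation of GR as its subject.

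GR is a ligand-activated transcription factor of the nuclear receptor family. When a glucocorticoid binds, the ligand-binding domain exposes a surface that takes up short leucine-rich motifs of the p160 coactivators, which in turn bring in acetyltransferases and methyltransferases. NCoR1 and RIP140, the product of Nrip1, bind nuclear receptors and recruit histone deacetylases, PGC-1alpha, the product of Ppargc1a, coactivates receptors that control mitochondrial and energy genes, and Kmt2d marks enhancers by methylating histone H3.

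The file headers record 24.0 M to 43.1 M reads a library, and 16.5 M to 31.5 M were counted to exons. Rn45s, the ribosomal RNA precursor, took 9.95 to 11.3% of these in WT and 13.8 to 18.3% in the mutant lines. Of the epithelial markers Epcam had 6 reads over all libraries, and the group means of Krt8, Krt18 and Cdh1 were 22.1 to 41.9, 13.8 to 30.8 and 18.0 to 35.6 normalised reads. Those of the mesenchymal markers were 60900 to 77600 for Vim, 337 to 622 for Pdgfra and 108 to 241 for Col1a1. The macrophage marker Cd68 was at 106 to 240 and the endothelial marker Cdh5 at 70.6 to 267, near the level of Col1a1. Other leukocyte, endothelial and adipocyte markers (Ptprc, Adgre1, Pecam1, Adipoq and Plin1) were at 5.02 or below. The W718S/Y722S Dex replicate 1 stood apart from the other 4 of its group, and vehicle replicates 2 and 3, Dex replicates 2 and 3 and Dex replicates 4 and 5 of that line were closer to each other than any pair of the other lines except WT Dex replicates 2 and 3. Levels below are reads divided by a size factor computed over all 34 libraries. Each line has a table normalised on its own, so differences in level between lines are described and not tested. In cells in bulk, a lower level cannot be told apart from fewer cells that express the gene.

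Per kilobase of transcript, Nr3c1 was the most abundant of the 9 in the median library, at 908 normalised reads per kb. Ncor1 followed at 757, Kmt2d at 411, Ncoa2 at 373, Ncoa3 at 346, Ncoa1 at 291, Nrip1 at 149 and Ppargc1a at 63.8. Nr3c2 was at 4.04. For Nr3c1, all values per kb here use the 6618 bases of its annotated transcript. The length of the introduced receptor's RNA is not given in the sources used here. The genes also differed in how far the lines stood apart. The vehicle means of the highest and the lowest line differed 1.13-fold for Ncor1 and 3.24-fold for Ppargc1a, and the median of the 10334 genes with a mean of at least 100 normalised reads was 1.38-fold. Ppargc1a was thus at the 97.3rd percentile of these genes, Ncor1 at the 9.73rd, and the other members of sufficient level between the 32.4th and the 58.7th.

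**Figure D1:**
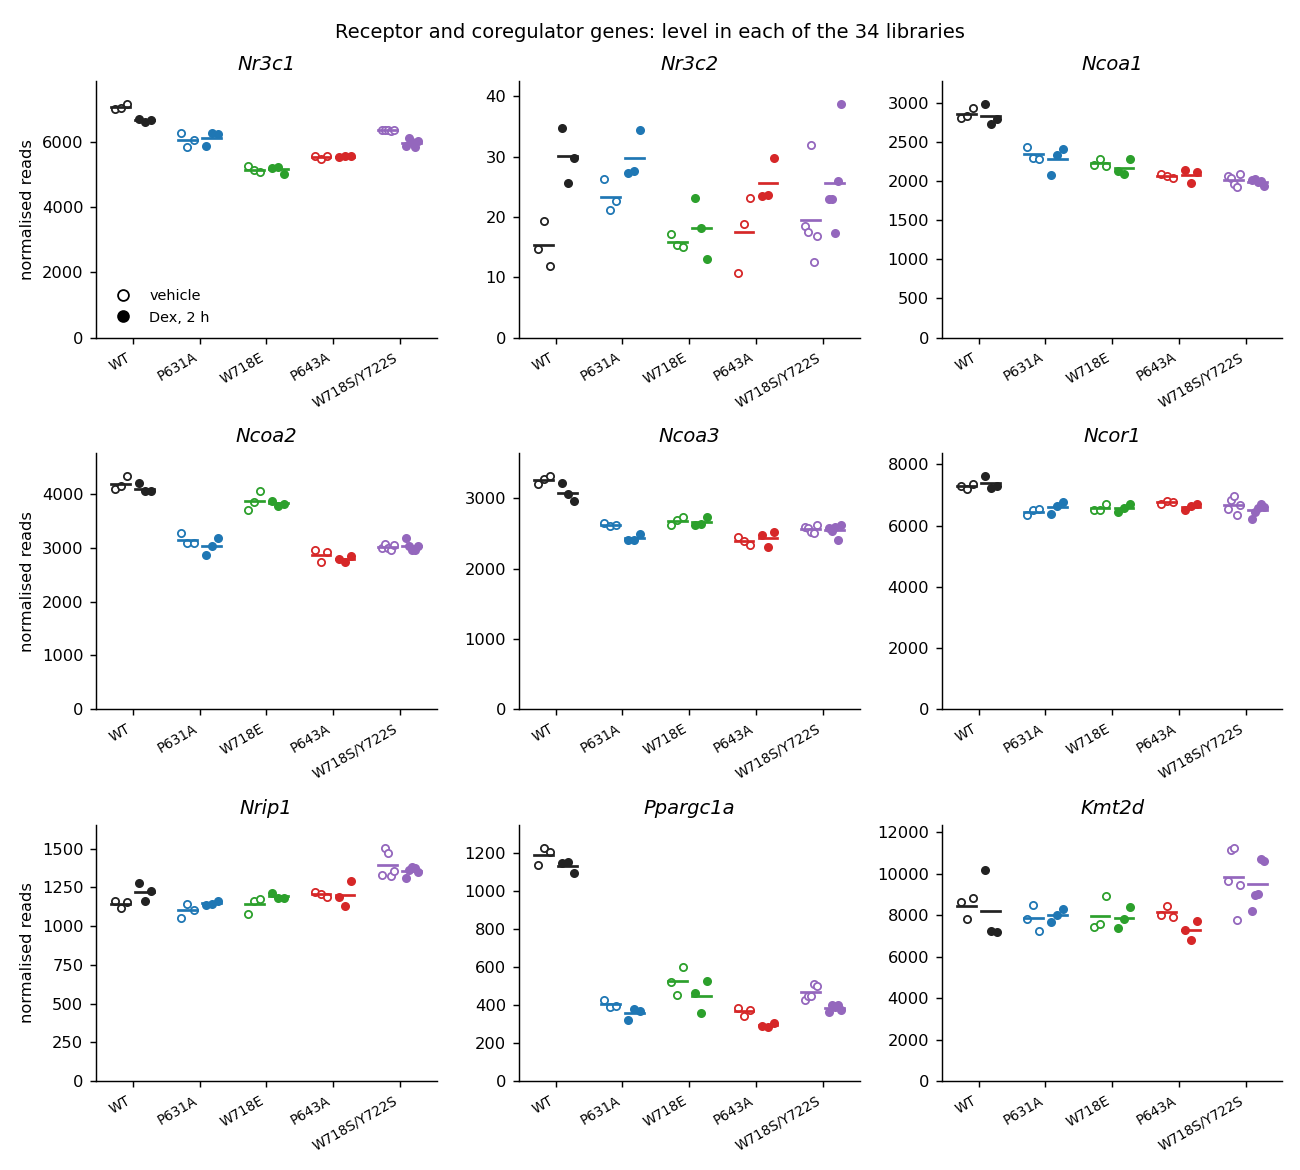
Normalised reads (size factors over all 34 libraries) of the 9 genes in each library, by line. Open points are vehicle, filled points Dex and short bars group means; every axis starts at 0. WT is the highest line for Nr3c1, Ncoa1, Ncoa2, Ncoa3 and Ncor1 in vehicle, and Ppargc1a lies at 1136 to 1225 in WT vehicle and at 602 or below in every mutant library.

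Nr3c1 (chromosome 18, 39410545 to 39489776, minus strand, mm10) is the targeted gene, and its reads may come from the introduced receptor as well as from what is left of the disrupted gene, which gene counts do not separate. In vehicle the WT libraries were at 7011, 7026 and 7145 normalised reads. The P631A libraries were at 6258, 5840 and 6038, those of W718E at 5243, 5120 and 5075, and those of P643A at 5572, 5468 and 5561. In W718S/Y722S they were at 6345, 6369, 6344, 6328 and 6369. Reads of the gene were thus present in every vehicle library of every line. The vehicle order was WT, W718S/Y722S, P631A, P643A and W718E, and no neighbours in that order overlapped. After Dex the WT libraries were at 6698, 6616 and 6660, all below those in vehicle, and the W718S/Y722S libraries were at 5870, 6107, 5987, 5826 and 6033, also all below. With Dex the order differed from that in vehicle in 1 place: P631A stood above W718S/Y722S, and the libraries of these lines overlapped.

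Nr3c1 fell with Dex in W718S/Y722S by 0.09 on the log2 scale (SE 0.02, adjusted p = 0.0474 by limma with Benjamini-Hochberg adjustment). In WT the change was -0.08 (SE 0.03), of about the same size, and it did not pass (adjusted p = 0.0884). In P631A, W718E and P643A the changes were 0.02, 0.0034 and 0.0056, with 95% confidence intervals from -0.07 to 0.11 between them. The call in W718S/Y722S survived leaving out Dex replicate 1 but none of the other 9 libraries (adjusted p from 0.0540 to 0.118), and it was lost with the closest libraries averaged (0.216) and with no filter on low values (0.0648). The test in WT passed without Dex replicate 1 (0.0197), with no variance trend (0.0292) and on CPM computed without Rn45s (0.0417). In the authors' deposited table the adjusted p was 0.00726 in W718S/Y722S and 0.172 in WT. Over the 34 libraries, the genes whose levels ordered the libraries most like Nr3c1 were Arhgap23, Ccn5 and Mtus1, with Spearman's rho of 0.957, 0.942 and 0.940 among 10333 genes. This is a description, since libraries of a line share the line and its table.

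Nr3c2 (chromosome 8, 76902330 to 77245012, plus strand) encodes the mineralocorticoid receptor, which binds the same DNA elements as GR and also binds glucocorticoids. It was the only member whose rise with Dex passed the test in any line, which was WT, and also the least abundant. The 250 bases before the start of its counted transcript are shown with those of Ncor1 for comparison. Capitals mark matches to AGAACA, or TGTTCT on the other strand, the hexamer that each partner of a GR or mineralocorticoid receptor dimer recognises. The sequences are from RefSeq on GRCm38.p6, at chr8:76902080-76902329 on the plus strand and chr11:62438516-62438765 on the minus strand, each printed 5′ to 3′ on its gene's strand.

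Nr3c2: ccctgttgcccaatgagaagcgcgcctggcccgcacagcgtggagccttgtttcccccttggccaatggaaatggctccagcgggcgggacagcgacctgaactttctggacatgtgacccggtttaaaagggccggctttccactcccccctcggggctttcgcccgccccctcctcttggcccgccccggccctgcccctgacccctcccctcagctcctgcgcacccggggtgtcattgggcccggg

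Ncor1: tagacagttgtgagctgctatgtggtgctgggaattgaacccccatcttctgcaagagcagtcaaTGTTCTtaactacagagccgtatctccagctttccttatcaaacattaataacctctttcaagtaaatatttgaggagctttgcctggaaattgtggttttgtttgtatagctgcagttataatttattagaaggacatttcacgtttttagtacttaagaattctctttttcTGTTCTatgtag

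The Nr3c2 window held 0 such hexamers. The Ncor1 window shown, at the start of the counted transcript of a gene that did not pass in any line, held 2, starting 185 and 12 bases before the transcript. It was the only window of the members' 8 with a match: another Ncor1 window, at a start 18817 bases upstream, held 0, as did the 5 windows of Ncoa1, Nrip1, Ppargc1a and Kmt2d. The Ppargc1a window lay at a start 13804 bases from that of its counted transcript, whose own window was not analysed. An Nrip1 window lay at a start 778 bases from the counted one. G and C made up 36.8% of the Ncor1 window shown, which lies downstream of that other start, and 73.6% of the upstream Ncor1 window. Whether the Ncor1 window shown acts as a promoter was not tested. Of 32851 promoter windows of this length 16.1% held at least 1 hexamer and 1.81% at least 2, and AGAACA, NNN and TGTTCT in a row, the full palindrome, were in 0.00913%. A match is a description of the letters and not a binding site, and the windows of Ncoa2 and Ncoa3 were not analysed here.

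In WT vehicle Nr3c2 was at 14.7, 19.3 and 11.9 normalised reads and after Dex at 34.7, 25.5 and 29.8, so that the groups did not overlap. The change was 0.95 on the log2 scale (95% confidence interval 0.44 to 1.47), a 1.94-fold rise (adjusted p = 0.0193, limma). This rests on 51 reads in the 3 vehicle and 92 in the 3 Dex libraries. The call was lost without any 1 of 4 of the 6 libraries, vehicle replicate 1 or 3 or Dex replicate 1 or 3 (adjusted p from 0.0584 to 0.108). It was also lost with no variance trend (0.289) and with no filter on low values (0.0534), and the authors' deposited table gives an adjusted p of 0.168. Gm10649, an RNA gene annotated on the other strand at this promoter, shares 247 exon bases with Nr3c2, and whether the counting used strand is not given in the sources used here.

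The Nr3c2 means in the mutant lines were also higher after Dex than in vehicle, and none of these changes passed. P631A went from 26.3, 21.1 and 22.6 to 27.2, 27.7 and 34.3, a change of 0.34 with an interval from -0.10 to 0.78. P643A went from 10.7, 18.8 and 23.1 to 23.5, 23.6 and 29.8, a change of 0.59 with an interval from 0.05 to 1.12. The libraries of these lines did not overlap between treatments, but the adjusted p were 0.916 and 0.296. W718E went from 17.2, 15.4 and 14.9 to 23.1, 18.1 and 13.0, a change of 0.15. W718S/Y722S went from 18.6, 17.5, 31.96, 12.5 and 16.8 to 23.0, 22.9, 17.3, 26.0 and 38.7, a change of 0.39. In both the treatments overlapped. Per kilobase, Nr3c1 exceeded Nr3c2 in every library, by a median of 406-fold in WT vehicle (309 to 513) and 190-fold in WT Dex (164 to 220). Of 10334 genes the levels of Arhgap10, Arl4d and Prune2 followed Nr3c2 most closely over the 34 libraries (Spearman's rho 0.734, 0.701 and 0.672).

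Ncoa1 (SRC-1), Ncoa2 (TIF2, also GRIP1) and Ncoa3 (SRC-3) are the p160 coactivators, which bind the hormone-bound receptor directly. In vehicle all 3 were highest in WT, and no mutant library reached the lowest WT library. Ncoa1 was at 2801, 2834 and 2930 in WT vehicle, and the means of the mutant lines were 70.6 to 81.9% of the WT mean. Ncoa2 was at 4093, 4149 and 4328 in WT, with W718E nearest at 3691, 3848 and 4045 (92.2% of WT) and the other lines at 68.5 to 75.1%. Ncoa3 was at 3196, 3275 and 3312 in WT, and at 73.4 to 82.0% in the mutant lines. The share of the 3 in their per-kilobase sum differed less. Ncoa2 made up 38.1 ± 0.256% of it in WT vehicle (SD, n = 3) and between 36.3 and 37.2% in P631A, P643A and W718S/Y722S, and 41.5 ± 0.921% in W718E, where the lowest library was at 40.8%.

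**Figure D2:**
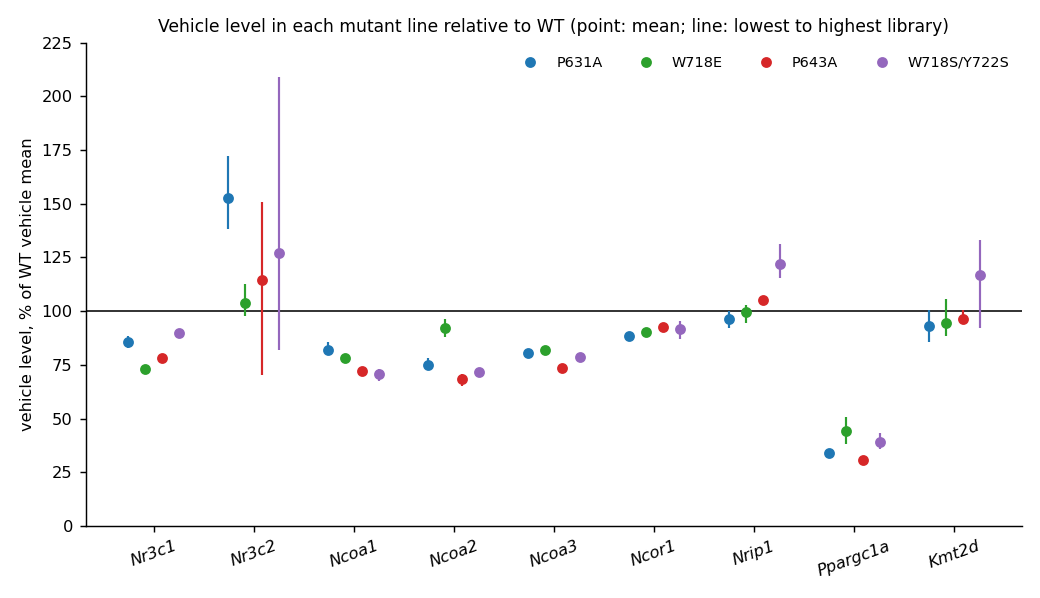
Vehicle level of the 9 genes in the 4 mutant lines as a percentage of the WT vehicle mean. Points are line means and vertical lines run from the lowest to the highest library; Ppargc1a lies at 30.9 to 44.2% and the p160 genes at 68.5 to 92.2%.

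None of the 15 tests of a p160 gene passed with Dex, where 0.221% (P631A) to 6.7% (WT) of all genes did (limma, smallest adjusted p = 0.245). Of the 15, 2 had an unadjusted p under 0.05, both of Ncoa3, and limma voom called 0. The changes ran from -0.11 to 0.028 on the log2 scale, and the 95% confidence intervals from -0.19 to 0.10. The lowest was Ncoa3 in P631A, which went from 2645, 2600 and 2616 to 2402, 2403 and 2494 with no overlap. Its change of -0.11 (SE 0.04) had an adjusted p of 0.765. In WT, Ncoa3 went from 3196, 3275 and 3312 to 3218, 3059 and 2960, and its test passed when Dex replicate 1 was left out (adjusted p = 0.00799). Sulf2 shares 154 exon bases with Ncoa3 on the other strand.

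Ncor1 (chromosome 11, 62316426 to 62438515, minus strand) is the scaffold of a histone deacetylase complex. It was the steadiest of the 9 across lines: WT vehicle was at 7299, 7210 and 7373 normalised reads, and the mutant lines at 88.6 to 92.7% of WT, with overlaps between all neighbours among them. Its changes with Dex ran from -0.03 in W718S/Y722S to 0.03 in P631A. The 3 p160 genes together were 1.61 ± 0.0306 times as abundant per kilobase as Ncor1 in WT vehicle (SD, n = 3) and 1.24 ± 0.0358 times in P643A vehicle, the lowest line. Nr3c1 over the same p160 sum was 0.80 ± 0.0109 in WT vehicle, 0.689 ± 0.0296 in W718E and 0.977 ± 0.0169 in W718S/Y722S (n = 5), the widest contrast between lines.

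Nrip1 (chromosome 16) encodes RIP140, a corepressor that is itself recruited to hormone-bound receptors. In vehicle it was highest in W718S/Y722S, at 1328, 1504, 1471, 1321 and 1358, and the WT libraries were at 1164, 1115 and 1155. In WT after Dex it was at 1279, 1160 and 1227, a change of 0.10 (95% confidence interval 0.0094 to 0.19) that did not pass (adjusted p = 0.234). Of the 10 tests of Ncor1 and Nrip1 none passed (limma, smallest adjusted p = 0.234, 1 with an unadjusted p under 0.05, and 0 by limma voom), where 0.221% (P631A) to 6.7% (WT) of all genes did.

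Ppargc1a (chromosome 5, 51454249 to 51553921, minus strand) showed both the widest difference between lines and a fall with Dex in more than 1 line. In vehicle it was at 1136, 1225 and 1204 in WT, at 426, 391 and 397 in P631A, at 519, 453 and 602 in W718E and at 383, 343 and 374 in P643A. The W718S/Y722S libraries were at 426, 447, 449, 512 and 498. The highest of these mutant libraries, at 602, thus stood below the lowest WT library, at 1136. The tables count it on NR_027710, and that of W718S/Y722S on NM_008904, whose lengths are 6482 and 6449 bases. WT also differed from the mutant lines in the share of Rn45s given above, and the part of that in this level was not tested.

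After Dex the P643A libraries were at 291, 284 and 306, all below vehicle, and those of W718S/Y722S at 363, 398, 388, 401 and 375, also all below. Ppargc1a fell in P643A by 0.32 on the log2 scale (95% confidence interval -0.45 to -0.18, adjusted p = 0.00231, limma). It fell in W718S/Y722S by 0.27 (-0.39 to -0.15, adjusted p = 0.00790). The call in W718S/Y722S was lost with the closest libraries averaged (0.0557). The authors' deposited table gives adjusted p of 0.0253 and 0.00303. In P631A the libraries went to 320, 378 and 369, also with no overlap, a change of -0.19 (-0.35 to -0.02, adjusted p = 0.831). In W718E they went to 465, 359 and 525, a change of -0.23 with an interval from -0.51 to 0.05. In WT they went to 1144, 1151 and 1091, a change of -0.07 (-0.15 to 0.02). The means were thus lower after Dex in all 5 lines, and in 2 of them the change passed.

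Kmt2d (chromosome 15, 98831669 to 98871205, minus strand), also known as MLL4 or MLL2, is the methyltransferase of an enhancer complex, and its relative Kmt2c is that of a similar, separate complex. In P643A it went from 8022, 8472 and 7929 in vehicle to 7290, 6822 and 7706 after Dex, with no overlap. It fell by 0.16 on the log2 scale (95% confidence interval -0.23 to -0.09, adjusted p = 0.00271, limma; 0.00314 in the authors' deposited table). The call was lost without Dex replicate 2 (adjusted p = 0.0556) and with no variance trend (0.170). Transcripts of at least 10 kb, a class to which Kmt2d belongs at 19.8 kb, were lower in the same comparison. The 244 others had a median change of -0.06, 78.7% of them were lower, and 43 fell and 6 rose by the test, against a median of 0.0013 and 49.3% lower over all 12698 genes. The part of transcript length in the Kmt2d call was not tested.

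In the other lines Kmt2d varied between libraries of a group. In WT Dex it was at 10203 in replicate 1 and at 7229 and 7200 in the others, and the vehicle libraries were at 8635, 7829 and 8852. In W718S/Y722S vehicle it was at 9646, 11160, 11251, 7784 and 9478, and after Dex at 8230, 8982, 9050, 10724 and 10611. The SD between libraries of a group was 0.22 on the log2 scale in WT and 0.20 in W718S/Y722S, at the 99.5th and 98.0th percentile of the genes with a mean of at least 100, whose medians were 0.05 and 0.07. The SD of Nr3c1 was 0.015 in WT, 0.011 in P643A and 0.021 in W718S/Y722S, at the 2.32nd, 0.666th and 0.557th percentile, and 0.047 in P631A and 0.030 in W718E, at the 25.4th and 10.9th. Without WT Dex replicate 1 the Kmt2d test in WT passed downward (adjusted p = 2.4e-06), against 0.865 with it. The libraries with more Kmt2d were those with more of other long transcripts. WT Dex replicate 1 lay 0.34 above its group mean for Kmt2d, 0.29 above for Kmt2c and 0.13 above for the median of 212 other transcripts of at least 10 kb, and W718S/Y722S vehicle replicate 4 lay at -0.33, -0.27 and -0.11.

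**Figure D3:**
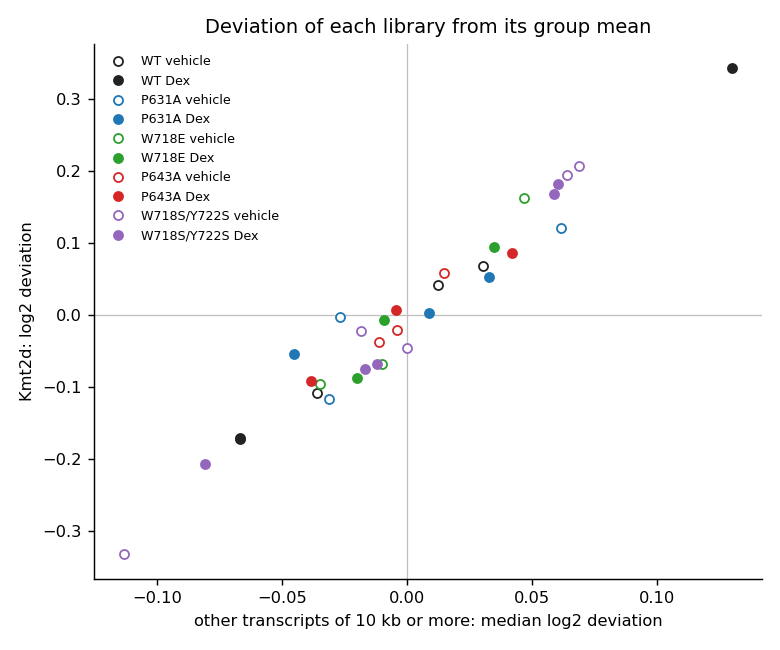
Deviation of each of the 34 libraries from its group mean on the log2 scale: Kmt2d (vertical axis) against the median of 212 other transcripts of at least 10 kb (horizontal axis), with open points for vehicle and filled points for Dex. The points run from W718S/Y722S vehicle replicate 4 at the lower left (-0.11, -0.33) to WT Dex replicate 1 at the upper right (0.13, 0.34).

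Of the 45 tests of the 9 genes within lines, 5 passed. In WT 1 of 9 passed, where 6.7% of the 12626 genes tested did. In P643A 2 of 9 passed (4.78% of all genes) and in W718S/Y722S 2 of 9 (4.79%). In P631A 0 passed (0.221% of all genes; 2 of the 9 had an unadjusted p under 0.05), and in W718E 0 passed (0.524%; 0 had an unadjusted p under 0.05), with 0 by limma voom in both. The median change of the 9 genes was -0.03 in WT and in W718S/Y722S, 0.02 in P631A, -0.0060 in W718E and -0.0012 in P643A, and that of all genes lay between -0.0018 and 0.0013. The 36 tests of the members other than Nr3c2 that did not pass had 95% confidence intervals within -0.51 and 0.19.

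**Figure D4:**
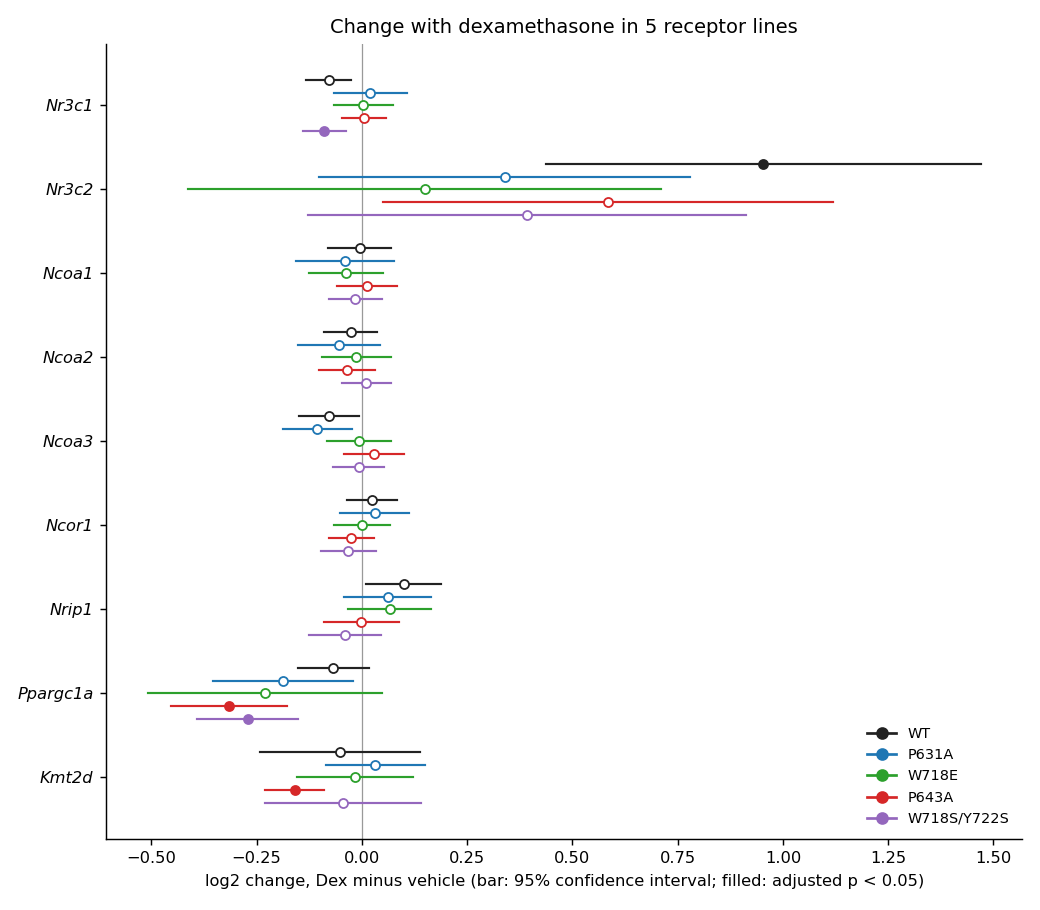
Log2 change, Dex minus vehicle, of the 9 genes in the 5 lines, with 95% confidence intervals as bars and filled points where the adjusted p was under 0.05. The 5 filled points are Nr3c2 in WT at 0.95, Ppargc1a in P643A and W718S/Y722S at -0.32 and -0.27, Kmt2d in P643A at -0.16 and Nr3c1 in W718S/Y722S at -0.09.

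Whether a mutant line responded differently from WT was tested as the difference between its change and the WT change, so the 4 contrasts share the WT libraries. None of the 36 differences of the 9 genes passed (limma, smallest adjusted p = 0.113; 7 had an unadjusted p under 0.05; 0 by limma voom), where 1.93% of all genes passed for P631A, 1.77% for W718E, 1.55% for P643A and 1.72% for W718S/Y722S. The smallest adjusted p was that of Ppargc1a in P643A, whose change lay 0.25 below that of WT (95% confidence interval -0.40 to -0.10). This difference passed without P643A vehicle replicate 2 (adjusted p = 0.0276). The Nr3c2 response lay below that of WT, with differences of -0.80 in W718E, -0.61 in P631A, -0.56 in W718S/Y722S and -0.37 in P643A and intervals from -1.55 to 0.40 between them. For the other 8 genes the 32 differences lay between -0.25 and 0.11, and their intervals between -0.47 and 0.37.

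Other genes of the pathway were taken from 7 lists of 71 genes, of which 63 to 65 were tested in each line. Of these 3 passed in WT, where 6.7% of all genes did, 4 in P643A (4.78% of all genes), 2 in W718S/Y722S (4.79%), 1 in W718E (0.524%) and 1 in P631A (0.221%), so that in WT, P643A and W718S/Y722S the lists' shares were near or below that of all genes. Trim24 (chromosome 6, 37870811 to 37968445, plus strand), which encodes the nuclear receptor coregulator TIF1alpha, rose in every line. In WT it went from 1768, 1773 and 1774 normalised reads to 3269, 3453 and 3321, a change of 0.92 (SE 0.03, adjusted p = 9.47e-14). In P631A it went from 1469, 1347 and 1423 to 1706, 1700 and 1835. In P643A it went from 1262, 1298 and 1249 to 1738, 1746 and 1782. Vehicle and Dex libraries did not overlap in these or the other lines. The changes in the mutant lines were 0.54 in W718S/Y722S (adjusted p = 1.34e-08), 0.47 in P643A (2.77e-11), 0.39 in W718E (0.00931) and 0.31 in P631A (0.0168). The P631A call was lost without vehicle replicate 2 or 3 or Dex replicate 2 or 3 (adjusted p from 0.0583 to 0.157) and the W718E call without vehicle replicate 1 (0.104). The response of Trim24 differed from that of WT in each mutant line, with differences of -0.379 in W718S/Y722S (adjusted p = 6.66e-05, limma), -0.452 in P643A (1.53e-07), -0.531 in W718E (9.55e-05) and -0.615 in P631A (4.96e-07). The Nr3c2 differences, from -0.80 to -0.37, did not pass, with SEs of 0.309 to 0.376 against 0.0431 to 0.0697 for Trim24.

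**Figure D5:**
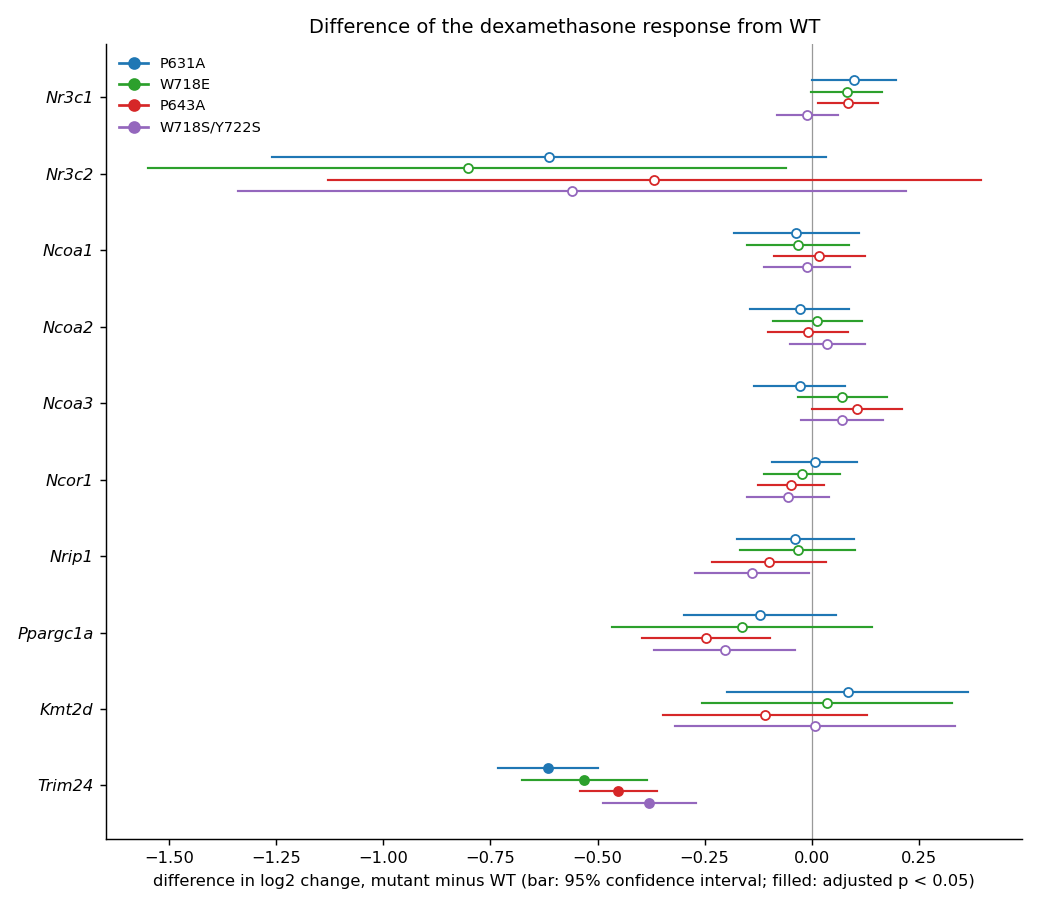
Difference of the log2 change with Dex between each mutant line and WT (mutant minus WT) for the 9 genes and Trim24, with 95% confidence intervals as bars and filled points where the adjusted p was under 0.05. Only the Trim24 points, from -0.615 in P631A to -0.379 in W718S/Y722S, are filled.

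Of 8 tested genes of the PGC-1 family and its partners 2 fell in WT, where 6.7% of all genes passed in either direction. Both are relatives of Ppargc1a, which did not pass in WT (adjusted p = 0.443, limma). Ppargc1b, another coactivator of mitochondrial genes, went from 626, 661 and 677 to 555, 496 and 502, and fell by 0.33 (adjusted p = 0.000384). Pprc1 fell by 0.10 (adjusted p = 0.0495), a call that survived leaving out Dex replicate 1 but none of the other 5 libraries (from 0.0623 to 0.219). Neither gene passed in the mutant lines. For Ppargc1b the response in W718E, 0.12, differed from that of WT by 0.454 (adjusted p = 0.00445, limma). The differences in the other mutant lines had the same sign and did not pass. They were 0.341 in W718S/Y722S (adjusted p = 0.0744), 0.325 in P631A (0.0971) and 0.182 in P643A (0.427). In P643A the changes that did not pass were -0.15 for Ppargc1b (95% confidence interval -0.26 to -0.04) and -0.09 for Pprc1 (-0.15 to -0.03). The medians of the 8 genes were -0.11 in WT and -0.01 in P643A.

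In P643A Kmt2c, the relative of Kmt2d, fell by 0.13 (adjusted p = 0.00967, limma), the Mediator subunit gene Med13 by 0.12 (0.00553) and the corepressor gene Lcor by 0.12 (0.0248). Their transcripts of 16.8, 10.5 and 15.2 kb belong to the class of at least 10 kb described with Kmt2d, whose part in these calls was not tested. Each call was lost without at least 1 library: Kmt2c without vehicle replicate 1 (0.0599) or Dex replicate 2 (0.0943), Med13 without Dex replicate 1 (0.0505), and Lcor without vehicle replicate 2 or 3 or Dex replicate 1 or 2 (from 0.0569 to 0.211). In W718S/Y722S the Mediator kinase gene Cdk8 rose by 0.13 (adjusted p = 0.0348), which was lost without any of 7 of the 10 libraries (from 0.0527 to 0.102). Of the 10 SWI/SNF remodelling genes none passed in any line (0 by limma voom, and at most 1 a line with an unadjusted p under 0.05), where 0.221% (P631A) to 6.7% (WT) of all genes did.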

How the data were processed

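RNA-seq of 34 libraries in 10 groups was analysed from 5 deposited tables, 1 per receptor line, grouped by the labels. Per the submitters' processing notes, cutadapt, STAR 2.7.0f and HOMER 4.10.4 were used with mm10, and per the file headers the authors counted reads in exons with 1 RefSeq transcript per gene. In the deposited tables the authors give each library as log2 values, scaled separately in each table, and the authors' fold changes (log2) with p-values and adjusted p-values are printed as theirs. No header names the transform. Its values behave as those of a log2 transform shrunken toward each gene's mean, which understates changes of low genes, so it was inverted to read counts, of which 99.99% or more came out whole (within 0.1) for genes with a mean under 100, 98.6 to 99.5% from 100 to 1000 and 56.7 to 77.5% above, where the largest gap was 0.242% of the count. These recovered counts gave the levels, the log2 changes (pseudocount 1), their SEs and intervals. The recovery and fits were also run on simulated data made with the same assumed transform. Such a run cannot show that the deposited values were made with it.

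Adjusted p of Dex against vehicle come from limma 3.58.1 in R 4.3.3 on the deposited log2 values of 1 line, with a variance trend, over genes that reach a value of 10 in as many libraries as the smaller group has. Differences between lines are limma contrasts over 4 group means on the recovered counts. P-values were adjusted over all genes tested by Benjamini-Hochberg and called under 0.05. Confidence intervals are 95% and cover the spread between libraries. The members and the 7 gene lists were chosen with earlier results of these data known. The list of other steroid receptors is not reported here. All 9 members are named in each comparison, other genes only where they passed (at most 6 a comparison), and the 3 most like genes by Spearman's rho for Nr3c1 and for a member called in WT. Alternatives were another scaling, pseudocount, filter or variance model, voom, the replicate number as a block, each library left out and near-identical libraries averaged. Of 25124 genes, 2800 are counted on another transcript in at least 1 table, among them Ppargc1a. Promoter sequences are from RefSeq on GRCm38.p6, and no sequence of Nr3c1 was used here. Exon overlaps are from the GENCODE annotation of GRCm38.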

Additional observations from a re-analysis of the deposited data

Results flagged for a closer look

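The response of Trim24 to Dex differed from that of WT in each mutant line by a test of the difference itself, by -0.615 (P631A), -0.531 (W718E), -0.452 (P643A) and -0.379 (W718S/Y722S) on the log2 scale, with adjusted p between 1.53e-07 and 9.55e-05 (limma). Ppargc1b differed in W718E by 0.454 (adjusted p = 0.00445), and its differences in the other mutant lines, from 0.182 to 0.341, did not pass. All 5 differences that passed kept their call in every alternative run, with adjusted p of at most 0.000694 for Trim24 and 0.0216 for Ppargc1b in W718E. The 4 Trim24 contrasts share the WT libraries. The levels of each of the 9 genes were examined for a library far from the others in the vehicle and Dex groups of W718S/Y722S (5 libraries each), and 0 of these 18 sets of levels had one.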

How the results depend on the processing

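Of the 81 results of the 9 genes (45 changes and 36 differences), 72 kept their call in each alternative, and of 1314 alternatives 21 lost a call, 7 gained one and 0 reversed. The number of members called in WT, 1, became 0 with no filter on low values and 2 on CPM computed without Rn45s. In P643A it went from 2 to 1 with no variance trend, and in W718S/Y722S from 2 to 1 with no filter and to 0 with the near-identical libraries averaged, an alternative chosen after seeing the data. With no variance trend the genes called went from 28 to 5 in P631A, from 66 to 42 in W718E and from 602 to 387 in P643A, and the Trim24 calls in P631A and W718E were lost (adjusted p = 0.171 and 0.182). Averaging gave 273 genes in W718S/Y722S against 596. On the deposited values 357 genes differed from WT in W718E (231) and 312 in P643A (203). The causes were not tested.

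Leaving out 1 library gave 0 to 3 members in WT, 1 to 2 in P643A and in W718S/Y722S and 0 to 1 in the difference of P643A from WT. The 3 in WT were Nr3c1, Ncoa3 and Kmt2d, without Dex replicate 1. More genes in all were then called in WT than with every library kept, so these calls came with a general rise. Leaving out any other WT library, or any P643A library, lowered the number of genes called in that line. Genes called ran from 14 to 49 in P631A, 28 to 76 in W718E and 412 to 971 in W718S/Y722S, where 971 is without Dex replicate 1, and from 153 to 348 in the difference of W718S/Y722S from WT.

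By the deviations from group means, same-numbered libraries correlated at -0.02 to 0.10 in WT, -0.41 to -0.16 in P631A and 0.02 to 0.45 in W718E. The values were 0.02 to 0.06 in P643A and -0.13 to 0.10 in W718S/Y722S. In no line did every library correlate best with its own number. In W718E replicates 2 and 3 did, at 0.367 and 0.448, and replicate 1 did not, so pairing in that line is not settled. A fit with replicate number as block called 5 genes in P631A (28 without it) and 288 in W718E (66 without it). In the difference of W718E from WT it called 368 (231 without it). The block called 1 member in W718E, Ppargc1a (adjusted p = 0.0278), and 1 in W718S/Y722S, where Nr3c1 was lost (0.133). It changed no other call of the 9 genes. Of the other genes named it lost Trim24 in P631A (0.159) and Cdk8 in W718S/Y722S (0.0715). Nr3c2 had 11 to 41 reads a library, and the part of depth in its results was not tested.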
